A study of Mus musculus with 4 samples.

Results

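The BCL2 family decides whether a cell opens the outer membrane of its mitochondria and enters apoptosis. Its transcripts were followed here in spermatogonia-enriched cells with and without the deacetylase SIRT7. The genes were listed by name, with earlier results of these data known. They are Bcl2, Bcl2l1, Mcl1, Bax, Bak1, Bcl2l11, Bbc3, Pmaip1, Bid and Bad, which make 10 of the 78275 genes in the deposited count table. All 10 passed the filter on low counts, and 19736 genes in all did.

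RNA came from testis cells of 129S1/Sv mice at postnatal day 5. There were 2 Sirt7-/- libraries (labelled KO) and 2 wild-type (WT) libraries. Somatic cells had been depleted by letting them attach to a dish, so that the cells were enriched rather than sorted. Neither the number of mice behind a library nor any treatment is given in the sources used here. The study describes the 2 libraries of a genotype as independent biological replicates, without saying whether they are separate litters. P-values therefore measure the spread between these libraries.

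Library sizes were within 22007504 to 22181066 counts. Sirt7 itself was at 5.82 and 5.53 CPM (counts per 1000000 counts of the library) in the Sirt7-/- libraries, against 32.0 and 31.3 CPM in the WT libraries. Its log2 fold change was -2.47 ± 0.11 (SE), at an adjusted p of 3.63e-06 by the quasi-likelihood test of edgeR. All 11 spermatogonial markers examined were detected, with a sum of 2521 and 2254 CPM in Sirt7-/- and 2400 and 2434 CPM in WT. The preparations also held other cells. The 6 Sertoli cell markers summed to 1503 and 1944 CPM in Sirt7-/- and 1669 and 1657 CPM in WT, and the 5 erythroid markers to 1523 and 1148 CPM against 1018 and 925 CPM. All 5 erythroid markers had positive log2 fold changes (median 0.49), and 0 of them were called. The 6 stromal and myoid markers summed to 1157 and 1433 CPM in Sirt7-/- and 1179 and 1356 CPM in WT. Among them Dcn, which encodes the matrix protein decorin, was called lower (-0.54 ± 0.09 on the log2 scale; adjusted p = 0.0924, edgeR), the only marker gene called, although neither it nor any other gene was called without WT replicate 1 or without WT replicate 2. The 4 endothelial markers, all with negative fold changes (median -0.25), summed to 73.4 and 76.2 CPM in Sirt7-/- and 74.0 and 96.8 CPM in WT. The part of these cells in the BCL2 family values was not tested. In such bulk samples, fewer cells of a type and less RNA per cell cannot be told apart. In the spread of counts the WT libraries were closer to each other (a chi-square of 3.48 per gene) than the Sirt7-/- libraries (7.59), and no pair matched within sampling noise. Pairs of 1 Sirt7-/- and 1 WT library ranged from 7.19 to 7.95. The Sirt7-/- libraries thus lay about as far from each other as from WT.

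As background, the family has 3 kinds of member. The inhibitors (BCL2, BCL-XL from Bcl2l1, and MCL1) bind and hold the others. The effectors BAX and BAK form the pores through which cytochrome c escapes. The BH3-only proteins sense damage or loss of survival signals and either block the inhibitors or activate the effectors. In the mouse testis, germ cell apoptosis during the first wave of spermatogenesis depends on BAX, and spermatogonia accumulate when it is missing. Much of the control over these proteins lies in their modification, cleavage and degradation, which RNA counts do not show.

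What joins the 3 kinds in sequence is the BH3 core, the short helix by which they bind each other. It was located in the canonical GENCODE M39 transcripts (GRCm39) as a leucine, 3 residues of any kind, then glycine, alanine or serine, then aspartate. All 10 proteins held it. So short a pattern is common, and 34.0% of 21770 coding genes held it somewhere, or 13.3% with glycine alone. Below are the coding bases of a few members chosen to show one of each kind and the variants of the core, 5′ to 3′ on the coding strand, with the 18 bases of the core in capitals and 6 bases on each side.

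Bcl2, inhibitor, chr1:106640308-106640337, minus strand: ctgaccCTCCGCCGGGCTGGGGATgacttc

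Mcl1, inhibitor, chr3:95566741-95566770, plus strand: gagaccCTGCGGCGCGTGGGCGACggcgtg

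Bax, effector, chr7:45115424-45115453, minus strand: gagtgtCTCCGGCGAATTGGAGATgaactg

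Bcl2l11, BH3-only, chr2:127989064-127989093, plus strand: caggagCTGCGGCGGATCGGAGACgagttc

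Bbc3, BH3-only, chr7:16047692-16047721, plus strand: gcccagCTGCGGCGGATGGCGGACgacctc

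Bad, BH3-only, chr19:6928154-6928183, plus strand: cgtgagCTCCGAAGGATGAGCGATgagttt

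Bax and Bcl2l11 encode the same 6 residues in the core, through 14 identical bases of 18. Bbc3 has alanine and Bad serine where the other cores shown have glycine. Bcl2l11 and Bbc3 were the closest of the 9 cores compared, with 15 of 18 bases identical, although only 4 residues matched.

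No member was called between the genotypes. Calls needed an adjusted p below 0.1 in the edgeR fit, with Benjamini-Hochberg adjustment over every gene tested, and 0.0861% of all genes tested reached it. The smallest adjusted p among the members was 0.492, for Bcl2l11. The lack of a call does not show equal levels for any member, since the intervals given below also hold values away from 0. At an unadjusted p under 0.05 there were 3 of the 10, Bcl2l11 higher and Mcl1 and Pmaip1 lower, where 8.62% of all genes tested stood at that level. DESeq2 also called 0, with 2 at an unadjusted p under 0.05. Fold changes lay between -0.32 for Pmaip1 and 0.23 for Bcl2l11, with 6 positive and 4 negative. Their median was 0.06, against 0.00 over all genes tested, and the median of their absolute values was 0.15, against 0.11.

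Although the differences were small, the libraries of the genotypes often did not overlap. In 5 members both Sirt7-/- libraries lay above both WT libraries, and in 3 both lay below. These 8 of 10 stand beside 39.9% of all genes tested, of which 18% were above and 21.9% below. The 8 are the members with a mean of at least 10 CPM, and among all genes at that level 42.4% did not overlap and 10.3% had an unadjusted p under 0.05. The 2 weak members, Bak1 and Bad, overlapped.

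**Figure D1:**
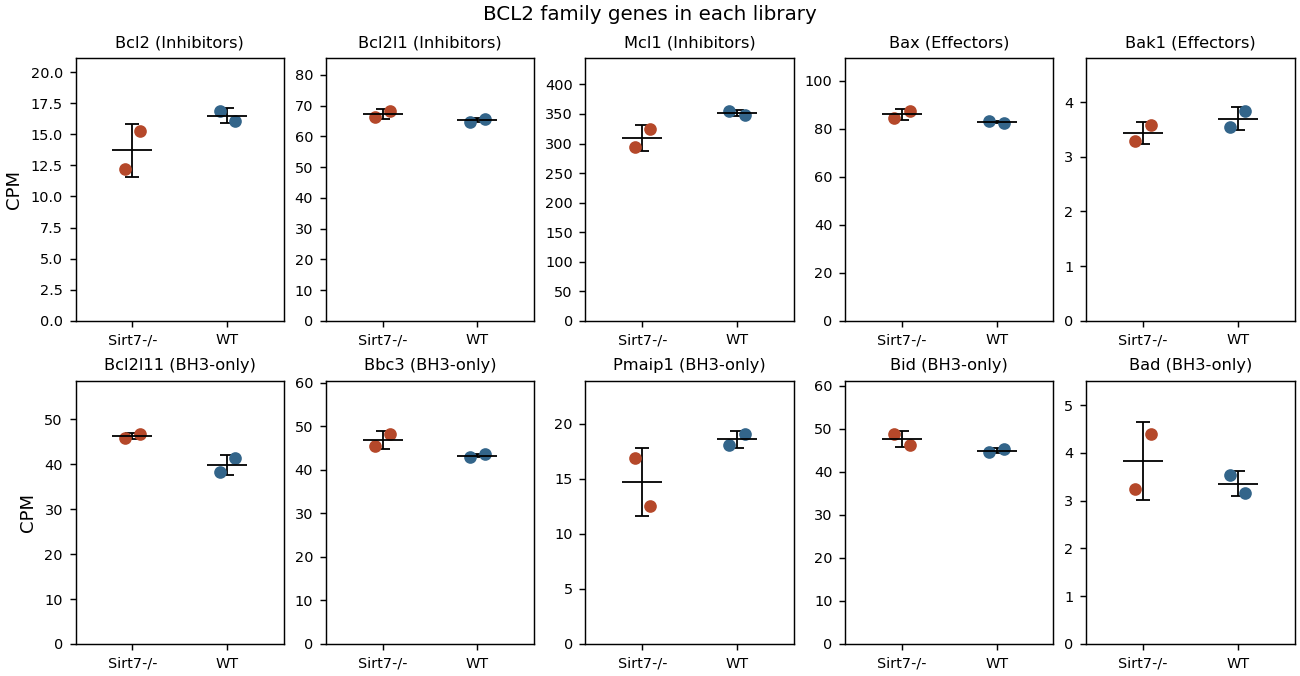
CPM of each BCL2 family gene in the 2 Sirt7-/- libraries (left in each panel) and the 2 WT libraries (right), with the mean (bar) and SD (whiskers), each axis starting at 0. The Sirt7-/- points lie below the WT points for Bcl2, Mcl1 and Pmaip1, above them for Bcl2l1, Bax, Bcl2l11, Bbc3 and Bid, and among them for Bak1 and Bad.

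Of the inhibitors, Mcl1 and Bcl2 were lower in Sirt7-/- without being called, and Bcl2l1 was not. Mcl1 (chromosome 3, 95566026 to 95570487, GRCm39) encodes a short-lived inhibitor whose level follows its synthesis closely. It was at 293 and 325 CPM in Sirt7-/- and 356 and 348 CPM in WT. Both Sirt7-/- libraries were below WT, and they differed from each other by more than the WT libraries did. The log2 fold change was -0.18 ± 0.07 (SE), with a 95% interval of -0.32 to -0.03 and an adjusted p of 0.501 (edgeR). Without Sirt7-/- replicate 2 it was -0.24, and without Sirt7-/- replicate 1 it was -0.11, each from a fit with a single Sirt7-/- library. Sirt7-/- replicate 1, where Mcl1 was lowest, had the lowest Sertoli marker sum and the highest spermatogonial one. Sirt7-/- replicate 2 had the highest Sertoli marker sum and the lowest spermatogonial one. Clu alone made most of the Sertoli sum, at 935 and 1293 CPM in Sirt7-/-, so such sums need not follow cell numbers. The part of these differences in the Mcl1 values was not tested.

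Bcl2 (chromosome 1, 106465908 to 106642060), the founding inhibitor of the family, rested on fewer reads. It had 271 and 336 counts in Sirt7-/- and 372 and 355 counts in WT. That is 12.2 and 15.2 CPM in Sirt7-/- against 16.9 and 16.1 CPM in WT, so that 1 Sirt7-/- library lay close to WT and the other further below. Its log2 fold change was -0.25 ± 0.12, and the 95% interval of -0.53 to 0.02 reached past 0. It was -0.41 without Sirt7-/- replicate 2 (adjusted p = 0.147, edgeR) and -0.11 without Sirt7-/- replicate 1.

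Bcl2l1 (chromosome 2, 152622582 to 152673655) encodes BCL-XL, which germ cells of the fetal mouse gonad need to survive. It was at 66.3 and 68.4 CPM in Sirt7-/- and 64.8 and 65.7 CPM in WT, a difference of 0.06 ± 0.07 on the log2 scale. The 95% interval ran from -0.10 to 0.21. BCL-XL also protects red cell precursors, and the erythroid sums given above were higher in both Sirt7-/- libraries; their part in the Bcl2l1 values was not tested.

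The effectors were close to WT. Bax (chromosome 7, 45111015 to 45116325) was at 84.5 and 87.6 CPM in Sirt7-/- and 83.2 and 82.7 CPM in WT. The libraries did not overlap, yet the log2 fold change was 0.06 ± 0.07, with a 95% interval of -0.08 to 0.21. Bak1 (chromosome 17, 27238784 to 27247983) encodes BAK, the effector that sits in the mitochondrial membrane in healthy cells. It had 73 and 79 counts in Sirt7-/- and 78 and 85 counts in WT, near 3.44 and 3.69 CPM on average. At this depth the interval of its fold change, -0.49 to 0.31, was among the widest and held moderate differences in either direction. With 1 library left out the value lay between -0.15 and -0.03.

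The BH3-only genes did not share a direction. Bcl2l11 (chromosome 2, 127967958 to 128004476) encodes BIM, which responds to loss of growth factors. It was at 45.9 and 46.8 CPM in Sirt7-/- and 38.2 and 41.5 CPM in WT. Here the Sirt7-/- libraries were nearly equal and both exceeded WT. The log2 fold change was 0.23 ± 0.08 (95% interval 0.05 to 0.41; adjusted p = 0.492, edgeR), and it stayed between 0.17 and 0.29 with any 1 library left out, without being called.

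Pmaip1 and Bbc3 encode NOXA and PUMA, the BH3-only proteins that p53 induces after DNA damage. Pmaip1 (chromosome 18, 66591604 to 66598636) had 375 and 276 counts in Sirt7-/- and 397 and 422 counts in WT, an average of 14.7 ± 3.10 CPM in Sirt7-/- and 18.6 ± 0.74 CPM in WT (SD, n = 2). One Sirt7-/- library was just under WT and the other well under, and the log2 fold change was -0.32 ± 0.14 (95% interval -0.63 to -0.02; adjusted p = 0.558, edgeR). It was -0.56 without Sirt7-/- replicate 1 and -0.12 without Sirt7-/- replicate 2. NOXA binds MCL1, and both transcripts were lower in Sirt7-/-. For Pmaip1 the lower Sirt7-/- library was replicate 2, and for Mcl1 it was replicate 1.

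Bbc3 (chromosome 7, 16042318 to 16052130) lay on the other side of WT. It was at 45.5 and 48.3 CPM in Sirt7-/- and 43.0 and 43.6 CPM in WT, without overlap, at 0.13 ± 0.08 on the log2 scale with an interval of -0.05 to 0.30. Bax, Bbc3 and Pmaip1, well-known p53 targets, thus stood at 0.06, 0.13 and -0.32. Bbc3 and Bax were above WT and Pmaip1 below it.

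Bid (chromosome 6, 120862525 to 120894171) encodes the protein that caspase 8 cleaves to link death receptors to mitochondria. It was at 48.9 and 46.3 CPM in Sirt7-/- and 44.5 and 45.3 CPM in WT (0.09 ± 0.08 on the log2 scale, and 0.05 to 0.14 with 1 library left out). Bad (chromosome 19, 6918902 to 6929280) encodes a protein that survival kinases keep inactive by phosphorylation. With 72 and 97 counts in Sirt7-/- and 78 and 70 counts in WT, it was high in a single Sirt7-/- library. Its fold change of 0.20 ± 0.20 had the interval -0.25 to 0.65 and turned to -0.03 without Sirt7-/- replicate 2.

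**Figure D2:**
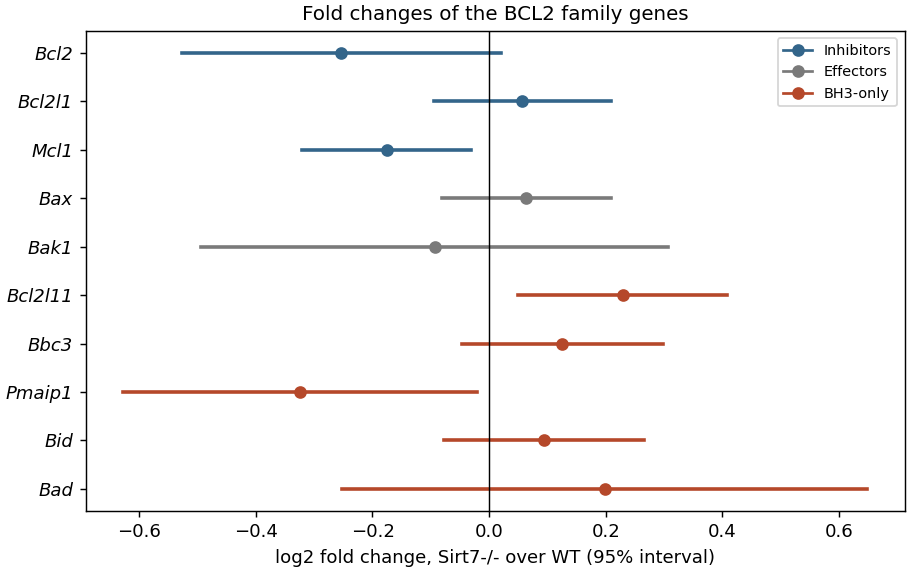
Log2 fold change (Sirt7-/- over WT) of each BCL2 family gene with its 95% interval from edgeR, coloured by role. Intervals of 7 genes include 0, whereas those of Mcl1, Bcl2l11 and Pmaip1 do not, and 0 genes were called after adjustment over all genes.

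**Figure D3:**
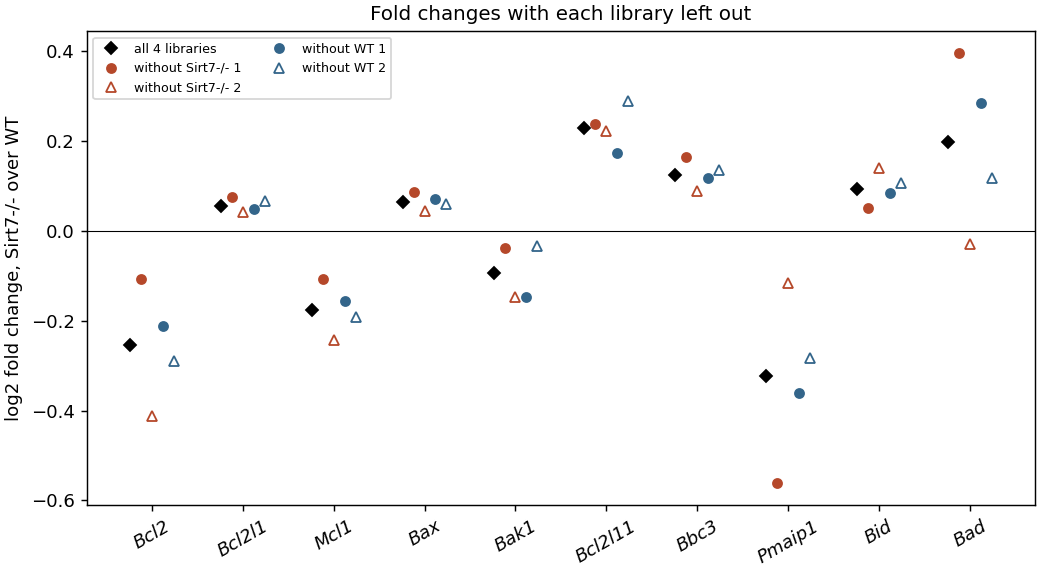
Log2 fold change (Sirt7-/- over WT) of each BCL2 family gene with all 4 libraries (diamonds) and with each library left out. Bcl2l11 stayed between 0.17 and 0.29, Pmaip1 ranged from -0.56 to -0.12 and Bad crossed 0.

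Some exons are shared with other genes. On the opposite strand, Bcl2l13 covers 31.2% of the annotated exon bases of Bid, Gm56656 25.2% and Gpr137 20.4% of those of Bad, and Ggnbp1 18.2% of those of Bak1. On the same strand, Gm45808 covers 10.3% of Bax. The libraries were made strand-specific, but the strand setting used for counting is not given in the sources used here, so the counts of these members may include or lack such reads. Mcl1, Bbc3 and Pmaip1 overlap no annotated gene.

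Levels can be compared between genes only per length, here as CPM per kb of the canonical transcript. Mcl1 and Bax stood far above the rest. Mcl1 was at 84.0 and 93.1 CPM per kb in Sirt7-/- and 101.9 and 99.7 CPM per kb in WT, and Bax at 86.6 and 89.8 in Sirt7-/- and 85.2 and 84.7 in WT. In WT the level of Mcl1 exceeded that of Bax in both libraries, and in Sirt7-/- the ranges of the 2 genes overlapped. Bid (mean over the 4 libraries 21.0 CPM per kb) and Bcl2l1 (20.3) followed. Bid was above Bcl2l1 within each library, but their ranges over the 4 libraries overlapped (20.2 to 22.2 for Bid and 19.8 to 20.9 for Bcl2l1). Next came Bbc3 at 16.8, Bcl2l11 at 8.54, Pmaip1 at 6.09 and Bad at 3.02 CPM per kb. The lowest levels were those of Bcl2 at 2.08 and Bak1 at 1.49. From Bcl2l1 down, the range of each gene over the 4 libraries lay wholly above that of the next. The order depends on the length used. Over the union of all annotated exons Bax stood at 45.5 and Bid at 4.72 CPM per kb, and Bid took rank 6 instead of 3, whereas Mcl1 and Bax kept ranks 1 and 2.

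**Figure D4:**
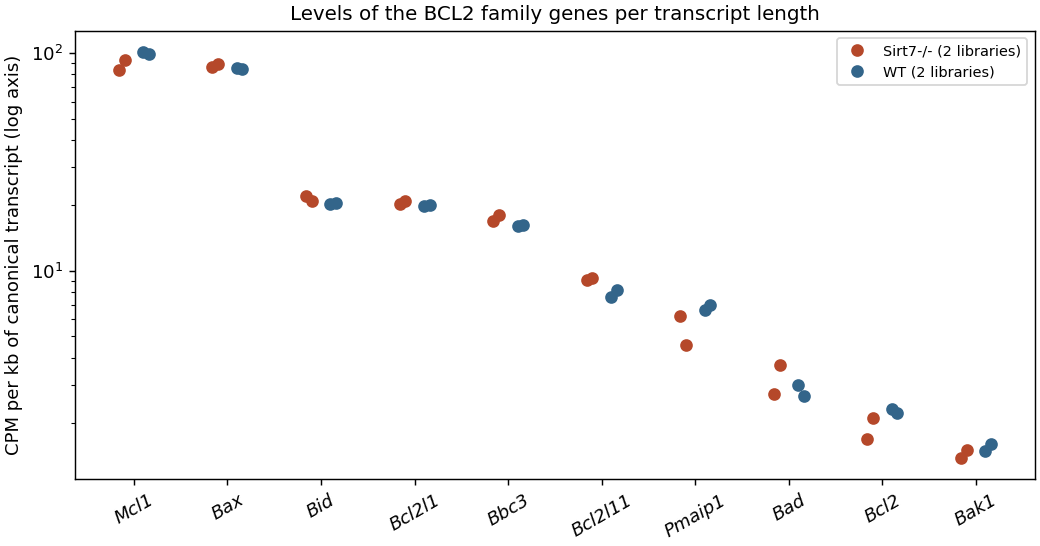
CPM per kb of canonical transcript (log axis) of each BCL2 family gene in the Sirt7-/- libraries (left of each pair) and the WT libraries (right), from the highest mean level to the lowest. Mcl1 and Bax lie between 84.0 and 101.9, and Bcl2 and Bak1 at 2.33 or less.

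Among the 3 inhibitor genes, most transcript was Mcl1. It made up 79.3% and 80.2% of their summed CPM per kb in Sirt7-/- and 82.1% and 81.7% in WT, whereas Bcl2 made up 1.59% and 1.81% in Sirt7-/- and 1.88% and 1.82% in WT. The inhibitor sum was 106.0 and 116.2 CPM per kb in Sirt7-/- and 124.0 and 122.0 CPM per kb in WT. For Bax and Bak1 together it was 87.9 and 91.3 in Sirt7-/- and 86.7 and 86.3 in WT. For the 5 BH3-only genes it was 57.2 and 56.6 in Sirt7-/- and 53.4 and 54.7 in WT. The sums hold the members only, and other family genes lie outside them. Among those, Bcl2l2 averaged 24.0 CPM per kb in Sirt7-/- and 24.3 in WT, and Bok 39.9 and 37.9. Each of the sums separated the genotypes, and each is a description without a test. The inhibitor sum is mostly Mcl1 and the effector sum mostly Bax, so their separations largely repeat those of Mcl1 and Bax. Among all genes tested, 39.9% did not overlap between the genotypes.

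The ratio of Bax to Bcl2 counts, a common index of the balance between death and survival signals, was 6.92 and 5.75 in Sirt7-/- and 4.92 and 5.15 in WT. Since Bcl2 made up at most 1.88% of the inhibitor sum given above, the ratio does not cover the whole balance in these cells. Per kb of canonical transcript the ratio was 51.3 and 42.7 in Sirt7-/- and 36.5 and 38.2 in WT, with the same fold difference between the genotypes. Both Sirt7-/- libraries were above both WT libraries, with a difference of 0.32 on the log2 scale. Because Bax was higher and Bcl2 lower without overlap, their ratio had to separate the genotypes and adds no further evidence. Most of the difference came from Bcl2 (-0.25, not called) and little from Bax (0.06). With 2 libraries against 2, an exact two-sided permutation test cannot go below p = 0.333. Without Sirt7-/- replicate 1 the difference was 0.19, and without Sirt7-/- replicate 2 it was 0.46.

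Other genes of the family were not called either. Of 15 listed, 12 were tested and 0 called, with a median fold change of 0.00. At an unadjusted p under 0.05 there were 2, both higher, beside 8.62% of all genes tested. Bnip3, which encodes a mitophagy receptor with a BH3-like region and is induced by low oxygen, was at 23.4 and 23.0 CPM in Sirt7-/- and 17.4 and 19.1 CPM in WT (0.36 ± 0.10 on the log2 scale; adjusted p = 0.355, edgeR). Bik, a BH3-only gene, was at 11.4 and 10.2 CPM in Sirt7-/- and 7.68 and 9.63 CPM in WT (0.32 ± 0.14). Bnip3l, the related mitophagy receptor that clears mitochondria from red cell precursors, was at 0.05 ± 0.06. Bcl2l2 encodes BCL-W, an inhibitor that adult mouse spermatogenesis needs. It was at 96.4 and 116 CPM in Sirt7-/- and 110 and 106 CPM in WT (-0.01 ± 0.08). Per kb its level was 24.0 ± 3.09 in Sirt7-/- and 24.3 ± 0.65 in WT (SD, n = 2). In each library that level was above those of Bcl2 and Bcl2l1. The copies Bcl2a1a, Bcl2a1b and Bcl2a1d are nearly identical, so their reads cannot be assigned with certainty.

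Downstream of the mitochondria, 18 genes of the apoptosome, caspases and their inhibitors were tested and 0 were called, with a median of -0.03. At an unadjusted p under 0.05 there was 1, beside 8.62% of all genes tested. That gene was Birc6, a giant inhibitor of apoptosis and ubiquitin ligase, at 215 and 207 CPM in Sirt7-/- and 234 and 234 CPM in WT (-0.14 ± 0.06). Cycs, which encodes the cytochrome c that BAX and BAK pores release, was at 0.11 ± 0.06. Casp6, an executioner caspase gene, was at 20.0 and 18.3 CPM in Sirt7-/- and 15.5 and 17.5 CPM in WT (0.22 ± 0.11).

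Upstream, 9 of 11 transcription factor and p53 regulator genes were tested and 0 called, with a median of 0.10. There were 2 at an unadjusted p under 0.05, both higher, where 8.62% of all genes tested stood at that level. Foxo1, a factor that spermatogonial stem cells need and that can induce Bcl2l11, was at 191 and 185 CPM in Sirt7-/- and 158 and 174 CPM in WT (0.20 ± 0.07; adjusted p = 0.478, edgeR). Ddit3, the stress factor CHOP, was at 26.1 and 27.6 CPM in Sirt7-/- and 22.6 and 24.1 CPM in WT (0.21 ± 0.09). Trp53, which encodes p53, was at 218 and 231 CPM in Sirt7-/- and 199 and 214 CPM in WT (0.13 ± 0.07). Mdm2, its main inhibitor, was at -0.07 ± 0.06.

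In the death receptor list 8 of 9 genes were tested and 0 were called, with a median of -0.04. Of these, 0 had an unadjusted p under 0.05, beside 8.62% of all genes tested. The receptor genes Tnfrsf1a and Tnfrsf10b were at -0.13 ± 0.11 and -0.01 ± 0.09. Ripk1, a kinase of the receptor complex, was at -0.15 ± 0.08. Cflar, whose product blocks caspase 8, was at 29.1 and 36.9 CPM in Sirt7-/- and 37.4 and 37.8 CPM in WT (-0.18 ± 0.11). Without Sirt7-/- replicate 2, which leaves a single Sirt7-/- library, Cflar was at -0.35.

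Of 8 genes for MCL1 turnover and for the outer membrane channels, all were tested and 0 were called, with a median of 0.04. Beside 8.62% of all genes tested, 1 gene here had an unadjusted p under 0.05. It was Usp9x, which encodes a deubiquitinase that stabilises MCL1, at 413 and 382 CPM in Sirt7-/- and 458 and 441 CPM in WT (-0.17 ± 0.06; adjusted p = 0.508, edgeR). The MCL1 ubiquitin ligase genes Huwe1 and Fbxw7 were at -0.06 ± 0.06 and 0.12 ± 0.08.

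**Figure D5:**
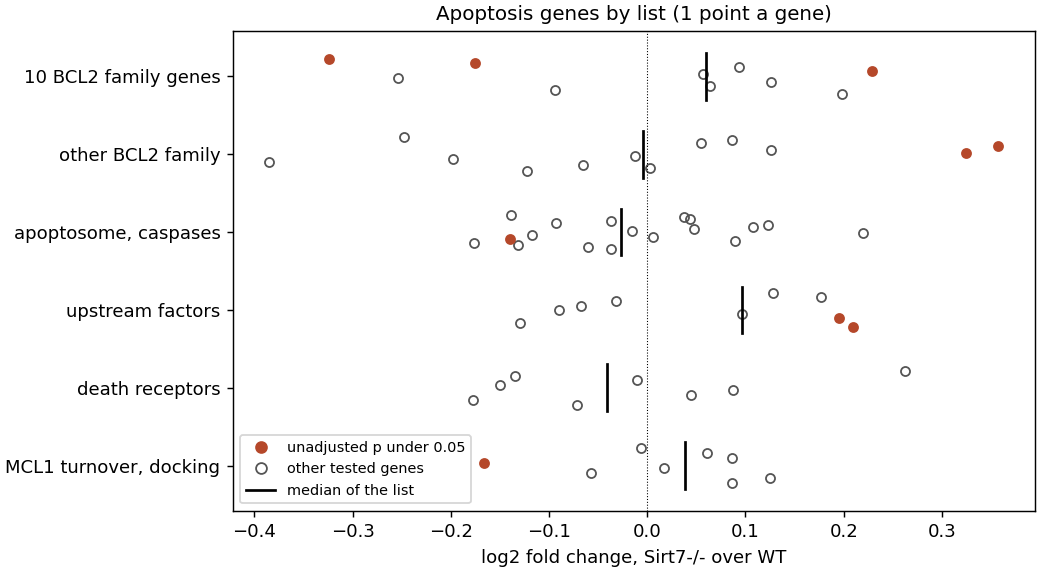
Log2 fold change (Sirt7-/- over WT) of every tested gene of the 6 lists, with filled points for an unadjusted p under 0.05 and a bar at the median of each list. Medians run from -0.04 for the death receptor genes to 0.10 for the upstream factors, and 0 of these genes were called.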

How the data were processed

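Polyadenylated RNA of 4 libraries was sequenced strand-specifically on DNBSEQ. The submitters' processing notes name the build GRCm39, HISAT2 for alignment and featureCounts for counting, and the authors deposited whole-number counts per gene that are not normalized. Tool versions, the annotation and the strand and multi-mapping settings were not given in the sources used here. Of 78275 identifiers, 78263 matched GENCODE M39 without the version (61962 with it), which gave names, positions and lengths. CPM are counts per 1000000 of the library total.

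Sirt7-/- was compared with WT in R 4.3.3 with edgeR 4.0.16 (filterByExpr at a minimum count of 10, TMM, quasi-likelihood F test, no covariates), and calls were made below an adjusted p of 0.1, as in the study. Standard errors were obtained as fold change over the root of F, and 95% intervals use the test's degrees of freedom. Alternatives were DESeq2 1.42.0, limma-voom (limma 3.58.1), other scalings and filters, leaving out each library, and a fit blocked on replicate number. The members and gene lists were chosen with earlier results of these data known. Named genes were the members, Sirt7 and, from each other pathway list with no called gene, the 2 of smallest p and the 2 of highest mean CPM.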

Additional observations from a re-analysis of the deposited data

How the results depend on the processing

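The number of members called stayed at 0 under DESeq2, limma-voom, scaling by DESeq2 size factors or by total counts, a filter of 1 CPM in 2 libraries or none, the replicate number as a block, and the stricter adjusted p of 0.05. With each library left out it ranged from 0 to 1 (Mcl1, lower, without Sirt7-/- replicate 2), and the count over the other apoptosis lists likewise from 0 to 1 (Cflar). All 10 members kept the direction of their fold change in every setting except Bad without Sirt7-/- replicate 2, and for Bad the 4 left-out fits ran from -0.029 to 0.40. Where an arm has 1 library, that library is assumed to vary like the others. Over all genes, the 17 calls became 48 with DESeq2, 0 without a filter (2032 at an unadjusted p under 0.05), 9 at an adjusted p under 0.05, 236 with the replicate block, and 0 to 465 with a library left out (0 without either WT replicate, with 596 and 824 at an unadjusted p under 0.05, 8 without Sirt7-/- replicate 1 and 465 without Sirt7-/- replicate 2). The cause was not tested. The deviations of Sirt7-/- replicate 1 and WT replicate 1 from their group means had a correlation of 0.04 over 19736 genes. Whether some genes share a replicate effect was not tested, and the main fit did not read the numbers as pairs. Bak1 and Bad, with under 100 counts in each library, are limited by depth, as their intervals show.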
